A study of Mus musculus with 11 samples.

Results

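The genes described here are serum response factor (Srf), the actins and the genes that bind, cap, cross-link or anchor actin filaments, 36 genes of the 54532 in the count table of a mouse pancreas study. They were picked by symbol, with the caerulein results of these same libraries already known, and all 36 were found. The differences between caerulein and untreated pancreas are therefore given as a description. Calls by adjusted p are printed for them only to describe the members, and nothing is drawn from how many moved there. Poly(A)-selected messenger RNA of whole pancreas of C57BL/6JRj mice was sequenced, 1 library per mouse. Aged caerulein mice (18 months, 3 libraries) and young caerulein mice (7 weeks, 3 libraries) had received caerulein, an analogue of the gut hormone cholecystokinin that injures the pancreas in excess, by 4 hourly intraperitoneal injections of 125 µg/kg, and carry the label 5H. Aged untreated mice (18 months, 2 libraries, mice 2 and 3) and young untreated mice (7 weeks, 3 libraries) are labelled as not treated. The sampling time is given here only as that label, because the series description can be read as a much shorter interval. The labels name no transgene or mutation, and sex is not given in the sources used here.

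SRF is a transcription factor that binds a short DNA element called the CArG box. Its cofactors of the MRTF family are held by unpolymerised actin, and when actin monomers are built into filaments these cofactors are released, enter the nucleus and switch on actin and adhesion genes together with SRF. In acinar cells, the enzyme-secreting cells of the pancreas, a belt of filamentous actin lies under the apical membrane where zymogen granules are released, and overstimulation with caerulein is known to disturb it.

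The promoters of Srf, Actg1 (gamma cytoplasmic actin) and Vcl (vinculin) are shown because these genes were among the members furthest above the untreated level after caerulein and their promoters hold the element that SRF binds. The windows come from RefSeq on GRCm38.p6, run 5′ to 3′ on the gene's strand from 250 bases before to 50 bases after the start, and the capitals mark each CArG box.
Srf, chr17:46556113-46556412, minus strand: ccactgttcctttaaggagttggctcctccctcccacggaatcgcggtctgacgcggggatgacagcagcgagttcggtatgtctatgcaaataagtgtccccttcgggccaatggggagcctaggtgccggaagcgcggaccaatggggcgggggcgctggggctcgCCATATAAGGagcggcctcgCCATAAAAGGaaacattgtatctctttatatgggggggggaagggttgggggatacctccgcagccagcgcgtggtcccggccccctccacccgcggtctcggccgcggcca
Actg1, chr11:120348446-120348745, minus strand: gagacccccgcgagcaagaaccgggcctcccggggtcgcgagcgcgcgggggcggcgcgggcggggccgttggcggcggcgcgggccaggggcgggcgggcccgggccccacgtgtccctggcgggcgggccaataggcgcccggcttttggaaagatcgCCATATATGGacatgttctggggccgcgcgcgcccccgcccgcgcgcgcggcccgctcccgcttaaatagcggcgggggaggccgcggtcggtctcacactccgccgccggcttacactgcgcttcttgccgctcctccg
Vcl, chr14:20929148-20929447, plus strand: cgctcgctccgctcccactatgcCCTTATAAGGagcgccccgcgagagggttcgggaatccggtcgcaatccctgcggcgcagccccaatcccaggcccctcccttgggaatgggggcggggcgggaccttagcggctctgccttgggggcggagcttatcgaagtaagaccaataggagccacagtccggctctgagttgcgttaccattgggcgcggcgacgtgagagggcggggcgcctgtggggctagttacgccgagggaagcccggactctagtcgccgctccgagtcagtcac

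The Srf window held 2 CArG boxes, centred 77 and 57 bases before the start. The box of Actg1 was centred 85 bases and that of Vcl 222 bases before it. Fhl2 held a box in each of its 2 windows (CCAAAAAAGG and CCTTATATGG), Myl9 held CCTAATAAGG, and Cnn2 and Lima1 both held CCTTATAAGG, the letters also found in Vcl. The CArG box is the same on both strands when read as a pattern, so 1 scan covers both, and no other motif was searched. Of the 36 members, 35 had at least 1 window. Actb had none, so its promoter was not scanned. Of the 35, 7 (20.0%) held an exact CArG box, against 488 of 27025 genes with a window (1.81%). Allowing 1 letter other than A or T between the outer CC and GG, 9 of 35 members (25.7%) and 3050 of 27025 genes (11.3%) had a match. Mismatches in the CC or GG were not allowed. The 7 members with a box did not behave alike: Srf, Actg1, Vcl and Fhl2 were far above untreated levels after caerulein, while Lima1 was below them at both ages (above them in aged mice, at 0.17, when scaled by library totals), Myl9 was below them in aged mice and overlapped them in young mice, and Cnn2 was little above them in aged mice and overlapped them in young mice through untreated mouse 2. The members were chosen as SRF targets or actin cytoskeleton genes, so their share of CArG boxes only describes that choice. A match is a description of letters, and a gene without one may still be bound elsewhere.

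Total counts per library ran from 14223190 to 26537091. The tissue label was checked against 8 acinar markers, which were abundant in every library, summing to between 273604 and 342932 CPM in aged caerulein, 270803 and 308421 in young caerulein, 552988 and 683660 in aged untreated and 387012 and 636365 CPM in young untreated libraries (CPM, counts scaled to 1000000 per library after TMM scaling of library totals). Young untreated mouse 2 stood apart. Its 7 leukocyte markers summed to 430 CPM, against 14.5 to 30.5 CPM in the other 10 libraries, its 8 B and T cell markers to 130 CPM against 0.156 to 1.68 CPM, and its 5 adipocyte markers to 226 CPM. Several young caerulein differences are given with and without it. In bulk tissue, fewer cells of a type and less RNA per cell cannot be told apart.

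**Figure D1:**
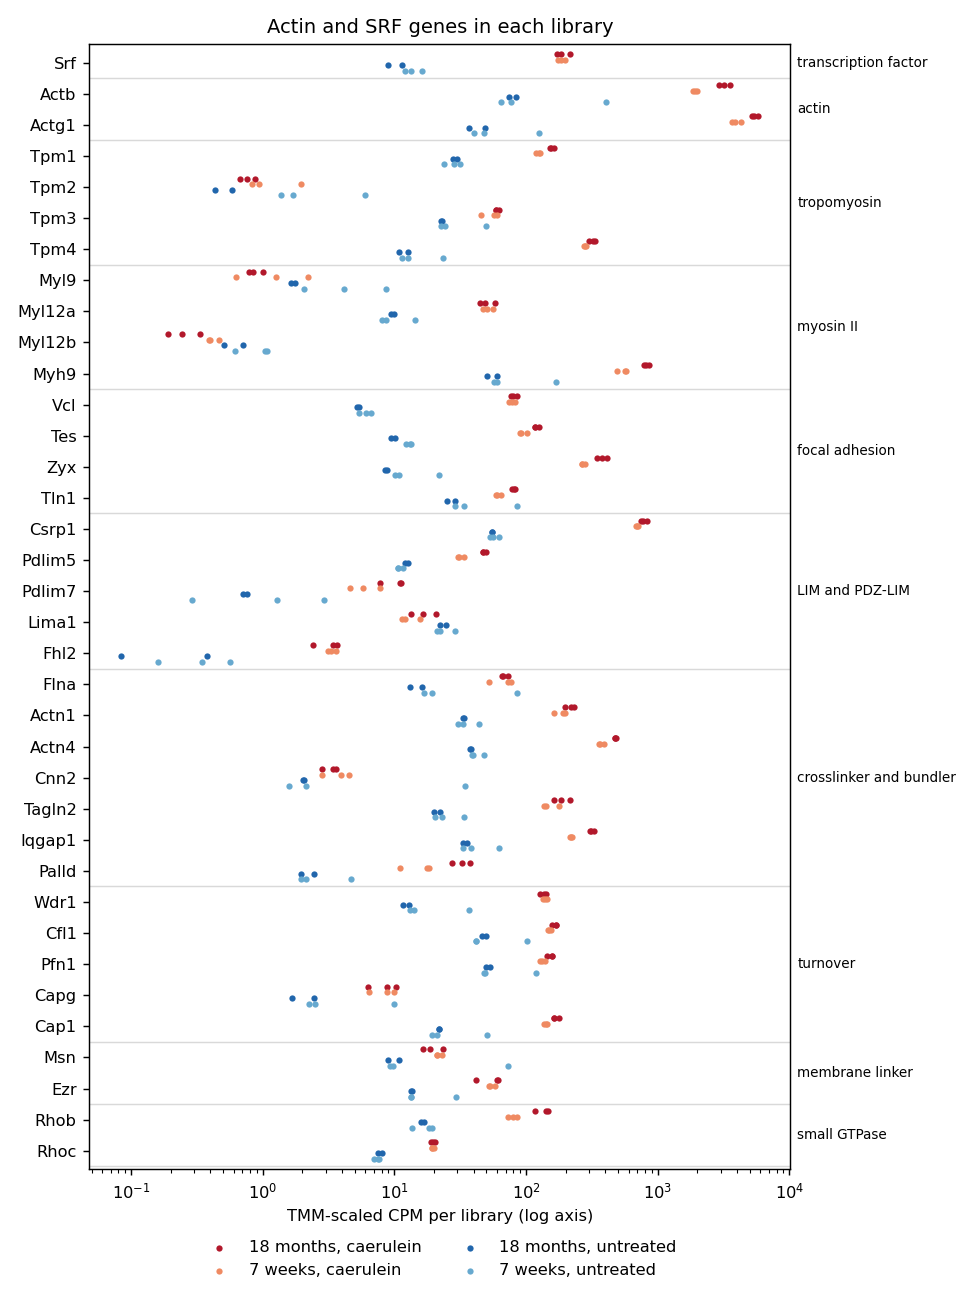
TMM-scaled CPM (log axis) of the 36 members in each of the 11 libraries, grouped by role, 1 point per mouse. Actg1 and Actb lie furthest right in the caerulein libraries, and 1 young untreated library (mouse 2) lies to the right of its group for genes such as Cnn2, Msn and Actb.

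As a whole, the members took up 1.53% to 1.69% of all counts in aged caerulein libraries and 1.14% to 1.31% in young caerulein libraries, against 0.0504% and 0.0593% in aged untreated and 0.0553% to 0.206% in young untreated libraries. The highest untreated value, 0.206%, was young mouse 2, and the other young untreated libraries had 0.0553% and 0.0555%. Shares of all counts do not depend on TMM scaling, and those of the aged caerulein mice did not overlap those of the young caerulein mice. Actb and Actg1, the genes of the beta and gamma cytoplasmic actins, together made up 60.9% to 63.3% of member counts in aged caerulein and 57.4% to 58.9% in young caerulein libraries, against 15.4% and 17.8% in aged untreated and 14.3%, 28.9% and 16.6% in young untreated mice 1, 2 and 3.

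Srf had 216, 185 and 172 CPM in aged caerulein mice, against 8.91 and 11.3 CPM in aged untreated mice. In young mice it had 183, 198 and 175 CPM after caerulein, against 12.1, 16.1 and 13.4 CPM untreated. The caerulein and untreated libraries did not overlap at either age, and the log2 fold change was 4.23 ± 0.20 (SE) in aged and 3.74 ± 0.16 in young mice. The gene lies on chromosome 17, 46548329 to 46556175 on the minus strand of mm10.

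The actins and Zyx had the largest differences among the members at 18 months. Actg1 (chromosome 11, 120345690 to 120348542, minus strand) had 5824, 5349 and 5179.9 CPM in aged caerulein mice, against 48.6 and 36.8 CPM in aged untreated mice, a log2 fold change of 7.00 ± 0.54. In young mice it had 3882, 4261 and 3642 CPM after caerulein, against 40.2, 125 and 47.8 CPM untreated, a log2 fold change of 5.79 ± 0.42 that was 6.43 ± 0.18 without untreated mouse 2. The caerulein libraries lay above every untreated library at both ages. Actb (chromosome 5, 142903115 to 142906754, minus strand) had 3520.2, 3183 and 2941 CPM in aged caerulein mice and 83.9 and 74.6 CPM in aged untreated mice (5.34 ± 0.78). The corresponding young values were 1917, 1999 and 1859 CPM after caerulein and 64.5, 401 and 76.3 CPM untreated (3.41 ± 0.59, and 4.72 ± 0.14 without mouse 2). Young untreated mouse 2 was thus the highest untreated library for both actins.

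The order of the 2 actins differed between treated and untreated pancreas. Per length, on the authors' FPKM scale, the ratio of the Actg1 level to the Actb level was 1.67, 1.69 and 1.78 in aged caerulein libraries and 2.04, 2.15 and 1.97 in young caerulein libraries, against 0.584 and 0.497 in aged untreated and 0.629, 0.313 and 0.632 in young untreated libraries. Gamma actin was thus the more abundant transcript in every caerulein library and beta actin in every untreated one. Of the 100-base stretches of Actg1 transcripts, 29.9% also occur in transcripts of other annotated genes, most often of the predicted gene Gm12715, against 0.644% for Actb, and none is shared between the 2 actins. How the counting treated such reads is not given in the sources used here.

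Tropomyosins, which coil along actin filaments and control access to them, split by gene. Tpm4 had 322, 336 and 301 CPM in aged caerulein mice, against 12.6 and 10.9 CPM in aged untreated mice, and 280.5, 286 and 275 CPM in young caerulein mice, against 11.4, 23.3 and 12.7 CPM in young untreated mice. These groups were far apart, with log2 fold changes of 4.77 ± 0.31 and 4.14 ± 0.25. Tpm1 differed by 2.44 ± 0.14 in aged and 2.15 ± 0.12 in young mice, and Tpm3 by 1.41 ± 0.30 and 0.75 ± 0.25 (1.15 ± 0.12 in the young without untreated mouse 2). Tpm2, a form abundant in muscle, stayed at 0.764, 0.877 and 0.666 CPM in aged caerulein mice, against 0.588 and 0.433 CPM in aged untreated mice. In the young it had 1.96, 0.830 and 0.936 CPM after caerulein, against 1.69, 5.99 and 1.38 CPM untreated, and those groups overlapped (-1.29 ± 0.55, and -0.35 ± 0.43 without untreated mouse 2). The FPKM ratio of Tpm4 to Tpm1 was 5.77 to 6.26 in aged caerulein and 6.51 to 6.79 in young caerulein libraries, against 1.08 and 1.33 in aged untreated and 1.06, 2.87 and 1.32 in young untreated libraries.

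The myosin II genes, which encode the motor that pulls on actin filaments, split in the same way. Myh9, the non-muscle heavy chain, had 865, 789 and 816 CPM in aged caerulein mice, against 59.8 and 50.9 CPM in aged untreated mice. In young mice it had 559, 572 and 495 CPM after caerulein, against 60.3, 168 and 56.6 CPM untreated. The log2 fold changes were 3.90 ± 0.45 and 2.51 ± 0.36, and 3.16 ± 0.13 in the young without untreated mouse 2. Myl12a, a regulatory light chain of non-muscle myosin, differed by 2.39 ± 0.25 and 2.31 ± 0.21. Myl9, the regulatory light chain of smooth muscle, had 0.840, 0.780 and 0.999 CPM in aged caerulein mice against 1.76 and 1.62 CPM in aged untreated mice, and 2.22, 1.26 and 0.624 CPM in young caerulein mice against 4.10, 8.67 and 2.07 CPM in young untreated mice. Its log2 fold changes were -0.95 ± 0.60, not called, and -1.85 ± 0.52, or -1.20 ± 0.43 in the young without untreated mouse 2. Myl12b stayed at or under 1.08 CPM in every library. Of its 100-base stretches, 24.04% also occur in other annotated genes, most often in another entry that is also named Myl12b, and only 0.788% in Myl12a. Of those of Myl12a, 13.1% occur in Myl12b. How the counting treated such reads is not given in the sources used here, so the level of Myl12b is uncertain.

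The 12 markers of smooth muscle and pericytes summed to 17.6 to 25.5 CPM in aged caerulein, 19.9 to 37.6 CPM in young caerulein, 29.4 and 30.7 CPM in aged untreated and 33.6 to 93.0 CPM in young untreated libraries, with the maximum in mouse 2, and no marker was at 0 in all libraries of a group. In aged mice their sums were below the untreated ones, as was Myl9, while Tpm2 was at 0.61 ± 0.71, and in young mice the ranges overlapped. The part of smooth muscle in the values of Myl9 and Tpm2 was not tested.

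Among the focal adhesion genes, whose products tie actin filaments to integrins, Zyx (zyxin, chromosome 6, 42349630 to 42360213) was second to Actg1 in aged mice. It had 409, 345 and 378 CPM in aged caerulein mice, against 8.74 and 8.45 CPM in aged untreated mice, and 268, 280.4 and 266 CPM in young caerulein mice, against 10.2, 22.0 and 10.8 CPM in young untreated mice. All caerulein libraries lay above all untreated ones, and the log2 fold changes were 5.46 ± 0.35 and 4.24 ± 0.27. Vcl, which links talin and catenin complexes to actin, had 85.8, 78.9 and 77.5 CPM in aged caerulein mice against 5.21 and 5.36 CPM in aged untreated mice, and 74.2, 83.0 and 78.0 CPM in young caerulein mice against 6.13, 6.67 and 5.35 CPM in young untreated mice. Its fold changes were close at the 2 ages (3.93 ± 0.15 and 3.69 ± 0.12). Part of Vcl, 24.7% of its 100-base stretches, lies within transcripts of Ap3m1 on the opposite strand, and the strand setting of the counting is not given in the sources used here. Tes (testin, a LIM protein of focal adhesions) differed by 3.61 ± 0.13 and 2.86 ± 0.11. Tln1 (talin, which activates integrins) differed by 1.58 ± 0.38 in aged mice and by 0.31 ± 0.32 in young mice, or 0.91 ± 0.11 without untreated mouse 2.

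LIM-domain adaptors ranged widely. Per length, on the FPKM scale, Csrp1, a LIM protein of actin bundles, was the most abundant member after the actins in every caerulein library. In CPM, Myh9 was above it in each aged caerulein library. Csrp1 had 829.7, 774 and 748 CPM in aged caerulein mice, against 55.0 and 55.1 CPM in aged untreated mice. In young mice it had 701, 682 and 712 CPM after caerulein, against 61.9, 53.3 and 56.1 CPM untreated. Untreated mice of both ages thus had about the same level, and the fold changes were 3.83 ± 0.15 and 3.61 ± 0.12. Pdlim7 differed by 3.77 ± 0.69 and 1.95 ± 0.52, and Pdlim5 by 1.95 ± 0.11 and 1.52 ± 0.10. The young value of Pdlim7 includes mouse 2, as it had 1.29, 2.92 and 0.288 CPM in young untreated mice 1, 2 and 3. Fhl2, a LIM cofactor, was rare, at 2.39 to 3.66 CPM in aged caerulein and 3.14 to 3.60 CPM in young caerulein libraries, against 0.0840 and 0.379 CPM in aged untreated and 0.160 to 0.562 CPM in young untreated libraries. Lima1, a LIM protein that stabilises filaments, went the other way, at 13.4, 16.6 and 20.8 CPM in aged caerulein mice against 22.3 and 24.5 CPM in aged untreated mice, and 12.1, 15.5 and 11.3 CPM in young caerulein mice against 20.9, 28.9 and 22.3 CPM in young untreated mice. With library totals in place of TMM, which moved the median of all genes to 0.69 (log2) in the aged and 0.43 in the young comparison, the aged log2 fold change of Lima1 was 0.17, against -0.47 ± 0.21 with TMM.

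Cross-linkers and scaffolds had positive fold changes after caerulein with 1 exception. In aged and young mice, Actn4 and Actn1 (alpha-actinins) differed by 3.65 ± 0.15 and 3.13 ± 0.13, and by 2.70 ± 0.19 and 2.36 ± 0.16. Palld (palladin, a scaffold of actin bundles) differed by 3.90 ± 0.40 and 2.38 ± 0.31, Iqgap1 (a scaffold for Cdc42 and Rac) by 3.20 ± 0.25 and 2.29 ± 0.21, Tagln2 (transgelin 2) by 3.16 ± 0.25 and 2.55 ± 0.20, and Flna (filamin A) by 2.22 ± 0.60 and 0.74 ± 0.49, or 1.84 ± 0.16 in the young without untreated mouse 2. The exception, Cnn2 (calponin 2), had 3.44, 2.83 and 3.61 CPM in aged caerulein mice against 2.02 and 2.06 CPM in aged untreated mice, and 2.83, 4.50 and 3.95 CPM in young caerulein mice against 1.57, 34.3 and 2.13 CPM in young untreated mice. Its young log2 fold change of -1.76 ± 0.88 came with the 34.3 CPM of mouse 2 and was 0.97 ± 0.27 without that library.

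The members that serve filament turnover had smaller fold changes than either actin. Wdr1, which helps cofilin take filaments apart, differed by 3.46 ± 0.40 in aged and 2.70 ± 0.33 in young mice, and Cap1, which recharges actin monomers, by 2.94 ± 0.37 and 2.21 ± 0.30. Cofilin itself (Cfl1) differed by 1.80 ± 0.34 and 1.27 ± 0.29, profilin (Pfn1), which delivers monomers to growing ends, by 1.57 ± 0.34 and 0.90 ± 0.29, and the capping protein Capg by 2.05 ± 0.61 and 0.76 ± 0.48. In the young without untreated mouse 2, Pfn1 differed by 1.42 ± 0.10 and Capg by 1.78 ± 0.26. The membrane linkers ezrin (Ezr) and moesin (Msn) differed by 2.00 ± 0.33 and 1.53 ± 0.28, and by 0.96 ± 0.74 and -0.51 ± 0.62. Msn, common in leukocytes, had 73.2 CPM in young untreated mouse 2 against 9.78 and 9.21 CPM in mice 1 and 3, and its young difference was 1.14 ± 0.15 without mouse 2. Of the small GTPases, which steer actin assembly, Rhob differed by 3.04 ± 0.19 and 2.22 ± 0.16 and Rhoc by 1.34 ± 0.11 and 1.40 ± 0.10.

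Counted over the group, 30 of 36 members were called higher and none lower in aged mice, beside 27% of 14113 genes tested called higher and 21.2% lower. In young mice 27 were called higher and 3 lower (Myl9, Myl12b and Lima1), beside 27.5% and 24.7% of all genes tested, and 32 and 2 without untreated mouse 2, beside 30.8% and 26.8%. The call of Myl12b was lost without that mouse and with the mouse number as a block. It was also lost with DESeq2, with no filter on low counts, with library totals and in several fits that left out another library. A call is an adjusted p below 0.05. The members not called were Tpm2, Cnn2 and Msn at both ages, Myl9, Myl12b and Lima1 in aged mice, and Flna, Capg and Tln1 in young mice. The median log2 fold change of the members was 2.82 in aged and 2.21 in young mice, against 0.07 and -0.06 over all genes tested. Since the caerulein results were known when the genes were picked, these counts only describe the choice.

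**Figure D2:**
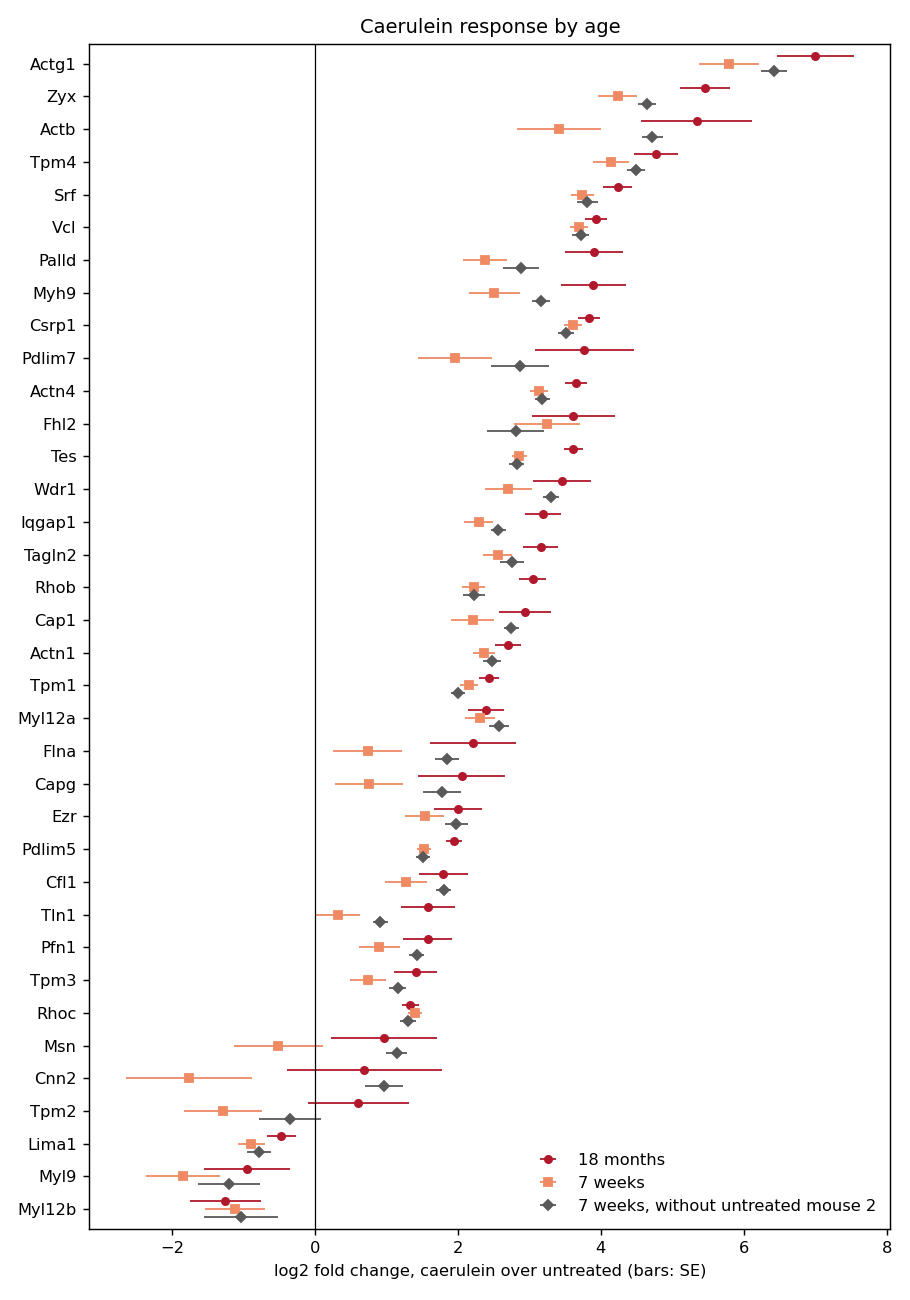
Log2 fold change, caerulein over untreated, of the 36 members with standard errors, at 18 months (circles), at 7 weeks (squares) and at 7 weeks without untreated mouse 2 (diamonds). Actg1 leads at both ages (7.00 and 5.79), and leaving out mouse 2 moves Cnn2 and Msn across 0.

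The members were not taken from a comparison of ages, although results of that comparison were also known. After caerulein, aged and young mice were compared to see how age changes the early injury state. In the fit of all 11 libraries, Pdlim5 and Rhob were higher in aged mice. Pdlim5, a PDZ and LIM protein that binds alpha-actinin, had 49.2, 47.0 and 46.8 CPM in aged caerulein mice, against 30.2, 30.8 and 33.5 CPM in young caerulein mice. The groups were well apart (log2 fold change 0.60 ± 0.09, adjusted p = 0.00636, edgeR quasi-likelihood test with Benjamini-Hochberg adjustment over all genes tested). Rhob, an endosomal small GTPase that is induced quickly by stress, had 147, 117 and 141 CPM in aged caerulein mice and 79.5, 86.0 and 72.4 CPM in young caerulein mice (0.77 ± 0.15, adjusted p = 0.0168 by the same edgeR test). Every aged library was above every young one for both genes. These 2 calls of 36 stand beside 2.46% of all genes called higher and 1.27% lower, and DESeq2 called 5, beside 4.18% of genes higher. At an unadjusted p below 0.05 there were 7 members by edgeR, and the share over all genes at that cutoff was not counted. A count of 2 is too near the background to be read as a result about the group. Rhob missed the threshold when aged caerulein mouse 1 or 3 or young caerulein mouse 1 or 3 was left out (adjusted p = 0.0710, 0.0661, 0.0687 and 0.0912, edgeR), while Pdlim5 passed in each of these 4 fits. With library totals in place of TMM neither passed in edgeR, beside 0.701% of genes called higher (adjusted p = 0.209 for Rhob and 0.260 for Pdlim5).

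Young untreated mouse 2 is in neither of these groups, but the fit of all libraries estimates each gene's spread over all 4 groups, and the number of calls changed when it was left out. Without it, 12 of 36 members were called higher in aged mice and none lower, beside 7.85% of genes tested called higher. They were Actb, Actg1, Actn4, Iqgap1, Myh9, Palld, Pdlim5, Rhob, Tes, Tln1, Tpm1 and Zyx. Fitting only the 6 caerulein libraries called the same 12 and Pdlim7, 13 of the 35 members that passed the filter on low counts there (Myl12b did not), beside 7.81% of genes. The 12 were also called by DESeq2 without mouse 2. The authors' deposited table lists 13 of 36 members as higher in aged caerulein mice and none as lower at an adjusted p below 0.05. The share over all genes in that table was not counted, so nothing is drawn from this number.

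Actb stood at 3520.2, 3183 and 2941 CPM in aged caerulein mice and at 1917, 1999 and 1859 CPM in young caerulein mice. The estimate hardly moved between fits while its error did: 0.74 ± 0.54 (adjusted p = 0.526) with all 11 libraries, 0.72 ± 0.10 (adjusted p = 0.000538) without young untreated mouse 2 and 0.71 ± 0.11 (adjusted p = 0.00161) with the 6 caerulein libraries, all by edgeR. Myh9 behaved alike, with 0.60 ± 0.34 (adjusted p = 0.386), 0.58 ± 0.10 (adjusted p = 0.00158) and 0.58 ± 0.10 (adjusted p = 0.00423) in the same 3 edgeR fits. Palld had 32.4, 27.5 and 37.6 CPM in aged caerulein mice and 18.3, 17.6 and 11.02 CPM in young caerulein mice. Its difference was the largest of the members, 1.05 ± 0.28 with all libraries (adjusted p = 0.0668, edgeR) and 1.02 ± 0.18 with the 6 caerulein libraries (adjusted p = 0.00403). In the fit of 6, Iqgap1 differed by 0.50 ± 0.09, Zyx by 0.45 ± 0.10, Actg1 by 0.45 ± 0.11, Tln1 by 0.37 ± 0.09, Actn4 by 0.34 ± 0.09, Tes by 0.32 ± 0.09 and Tpm1 by 0.30 ± 0.09. Scaling the same 6 libraries by their totals alone left 7 members called higher, beside 3.88% of genes.

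**Figure D3:**
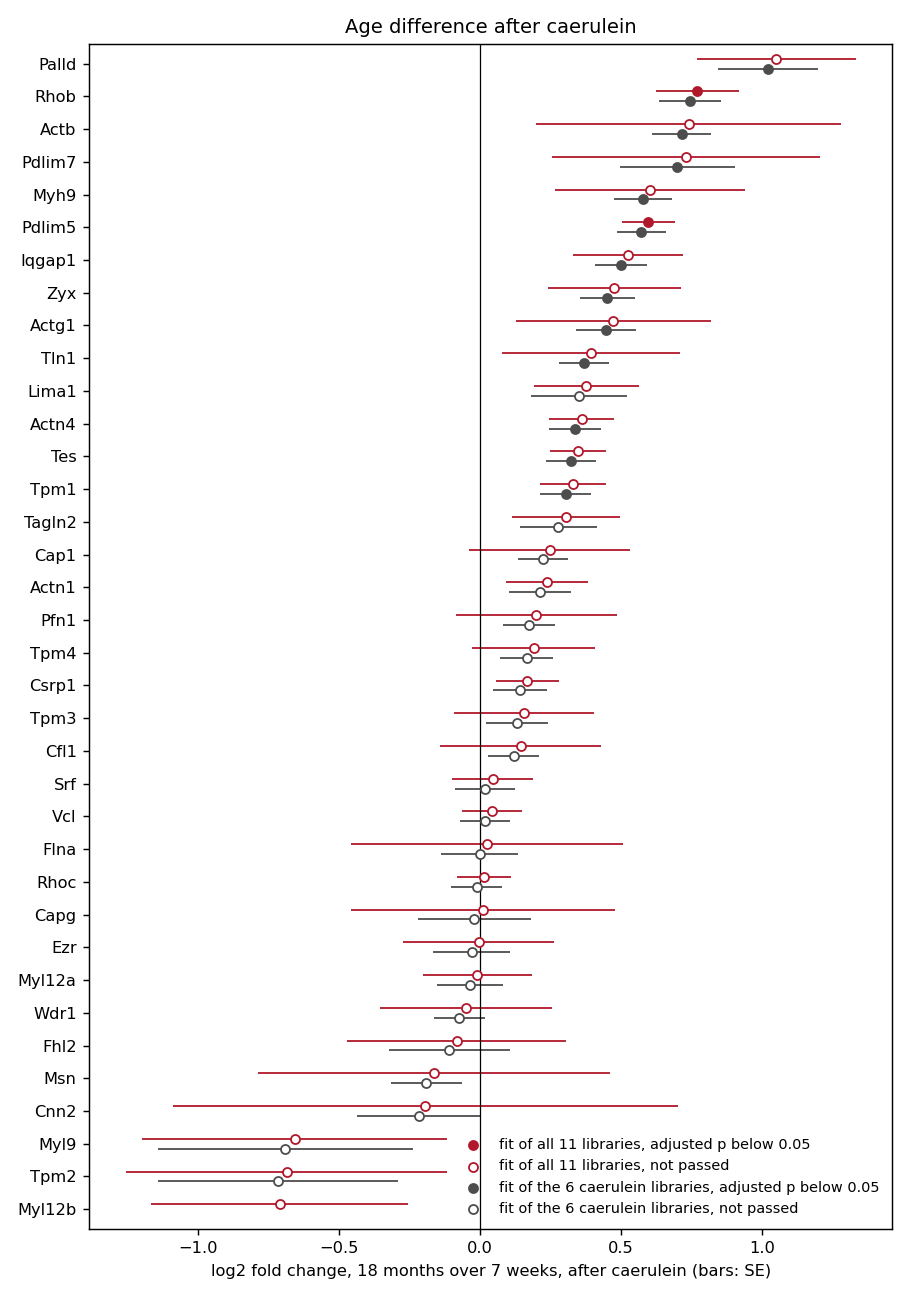
Log2 fold change, 18 months over 7 weeks, after caerulein for each member with standard errors, in the fit of all 11 libraries (above) and of the 6 caerulein libraries (below). Filled points passed an adjusted p below 0.05; the estimates nearly coincide and the errors are wider in the fit of all libraries. Myl12b was not tested in the fit of 6.

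Srf and Vcl were not among the genes that differed by age. Srf averaged 191 ± 22.9 CPM in aged caerulein and 185 ± 11.8 CPM in young caerulein mice (SD, n = 3 each), a log2 fold change of 0.04 ± 0.14 with overlapping libraries. Vcl differed by 0.04 ± 0.11, Rhoc by 0.01 ± 0.09, Ezr by -0.01 ± 0.27 and Wdr1 by -0.05 ± 0.30, and these groups overlapped as well. A test that misses the threshold does not show that the ages were alike. Across the members, 18 had every aged caerulein library above every young one, 1 (Myl12b) had every aged library below, and 17 overlapped. Over all genes tested, 17.3% lay wholly above and 13.6% wholly below. The median difference was 0.19 over the members and 0.01 over all genes.

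**Figure D4:**
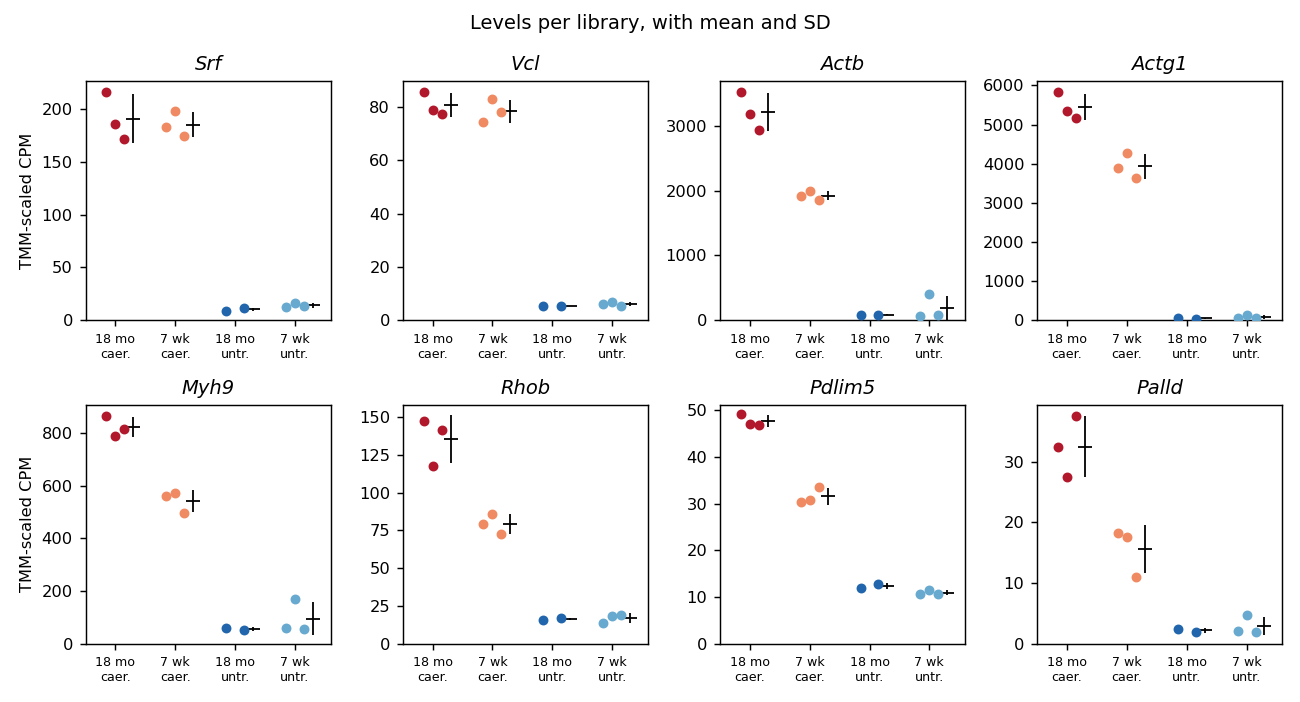
TMM-scaled CPM per library of 8 members, with the mean and SD of each group beside the points; groups are aged caerulein, young caerulein, aged untreated and young untreated. Srf and Vcl overlap between the ages after caerulein, while Actb, Actg1, Myh9, Rhob, Pdlim5 and Palld do not.

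Markers of other cells also differed between the caerulein groups. The 8 macrophage markers summed to 50.7 to 70.0 CPM in aged caerulein and 29.1 to 46.0 CPM in young caerulein libraries, and the 6 platelet markers to 5.77 to 9.50 CPM and 2.79 to 3.67 CPM, with Gp9 and Treml1 at 0 in all aged caerulein libraries. The 6 neutrophil markers ran the other way, at 1.28 to 1.56 CPM in aged caerulein and 2.50 to 21.3 CPM in young caerulein libraries. Smooth muscle markers (17.6 to 25.5 and 19.9 to 37.6 CPM) and leukocyte markers (21.4 to 28.2 and 14.5 to 23.2 CPM) overlapped. Their part in the age differences was not tested.

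In untreated pancreas no member was called different between aged and young mice by edgeR or by DESeq2, beside 0.0567% of all genes called higher and 0.0354% lower. At an unadjusted p below 0.05 there were 8 by edgeR and 10 by DESeq2, and the share over all genes at that cutoff was not counted. At an adjusted p below 0.05, DESeq2 called 0.255% of all genes higher and 0.191% lower. The median difference of the members was -0.47, against -0.03 over all genes, and -0.06 without young untreated mouse 2. For Actb the difference was -1.19 ± 0.63 with that library and 0.16 ± 0.13 without it. Without it the member with the largest difference was Tpm2, at -1.61 ± 0.54 (adjusted p = 0.417, edgeR), with 0.588 and 0.433 CPM in aged untreated mice and 1.69 and 1.38 CPM in young untreated mice 1 and 3.

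Whether the response to caerulein itself differed by age was tested as the difference between the aged and the young log2 fold change. No member passed in edgeR, beside 0.00709% of all genes in each direction. DESeq2 called 4 (Actn4, Rhob, Tes and Zyx), beside 1.3% of genes higher. By edgeR 11 members had an unadjusted p below 0.05, and the share over all genes at that cutoff was not counted. Without young untreated mouse 2, edgeR called 3 with a larger response in aged mice, beside 1.48% of genes. These were Zyx (0.75 ± 0.16, adjusted p = 0.0261), Tes (0.73 ± 0.15, adjusted p = 0.0226) and Myh9 (0.67 ± 0.16, adjusted p = 0.0437). These values also hold differences between untreated mice. Untreated Tes had 10.2 and 9.42 CPM in aged mice and 13.4, 13.2 and 12.3 CPM in young mice, and untreated Zyx had 8.74 and 8.45 CPM in aged mice and 10.2, 22.0 and 10.8 CPM in young mice. The aged untreated libraries lay below all young untreated ones for both genes.

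Young untreated mouse 2 did not raise all members alike. Over the mean of mice 1 and 3, its level was 18.5-fold for Cnn2, 7.71-fold for Msn, 5.70-fold for Actb, 4.67-fold for Flna, 4.20-fold for Capg, 3.91-fold for Tpm2 and 3.69-fold for Pdlim7. It was 2.83-fold for Actg1 and 2.88-fold for Myh9, but 1.26-fold for Srf, 1.16-fold for Vcl, 1.13-fold for Rhob, 1.09-fold for Pdlim5, 1.03-fold for Tes, 0.903-fold for Csrp1 and 0.799-fold for Tpm1. The members most raised in that library, such as Cnn2, Msn and Capg, are common in leukocytes, whose markers reached 430 CPM there, and the part of leukocytes was not tested. The young caerulein difference without that library was 3.81 ± 0.15 for Srf, 3.72 ± 0.12 for Vcl, 3.51 ± 0.11 for Csrp1, 2.82 ± 0.11 for Tes, 2.23 ± 0.16 for Rhob and 1.51 ± 0.10 for Pdlim5, each within 0.1 of its value with it.

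**Figure D5:**
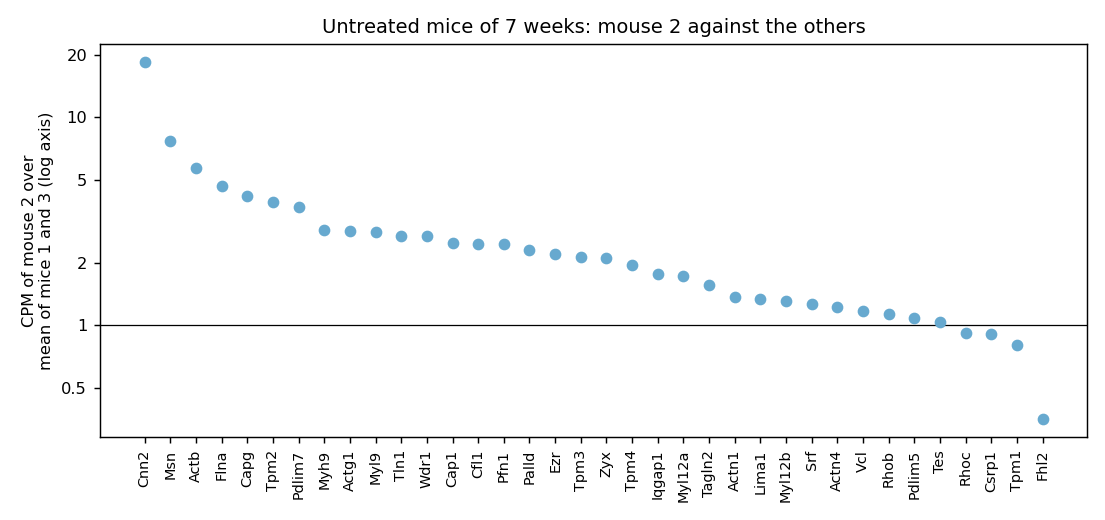
CPM of young untreated mouse 2 over the mean of young untreated mice 1 and 3 for each member (log axis). Cnn2, Msn and Actb lie highest (18.5, 7.71 and 5.70), and Tes, Rhoc and Csrp1 lie near 1.

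Other genes of the pathway were counted from lists written from general knowledge, with earlier results of these data already known. Their counts stand beside the shares of all genes given above (27% higher and 21.2% lower after caerulein in aged mice, 27.5% and 24.7% in young mice). Of 6 SRF cofactors tested, 2 were higher and 1 lower after caerulein in aged mice, and 1 and 1 in young mice. Mkl1, which encodes MRTF-A, differed by 2.26 ± 0.58 in aged mice, Elk4, an ETS partner of SRF, by 1.58 ± 0.41 in aged and 1.00 ± 0.35 in young mice, and Scai, a suppressor of MRTF, by -1.48 ± 0.49 and -1.66 ± 0.44. Among 22 other known SRF and MRTF targets, 11 were higher and 4 lower in aged mice and 13 and 2 in young mice, among them Tuft1 (3.57 ± 0.19 and 3.69 ± 0.16) and Thbs1 (3.90 ± 0.26 and 4.30 ± 0.22). After caerulein none of these 22 was higher in aged mice and 2 were lower, beside 2.46% of genes higher and 1.27% lower. By edgeR these were Myh10 (a second non-muscle myosin heavy chain, -0.88 ± 0.16, adjusted p = 0.0126) and Amotl2 (an angiomotin family scaffold, -0.81 ± 0.16, adjusted p = 0.0189). Leaving out young untreated mouse 2 gave 2 higher and 4 lower, beside 7.85% and 6.31% of genes. The median age difference of these targets was -0.38. Summed over the 25 listed genes found, levels were 804, 805 and 773 CPM in aged caerulein mice. In young caerulein mice they were 718, 801 and 699 CPM, so the groups overlapped. Calls this few are not read as a result about the list.

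The remaining machinery was counted in the same way. The genes named were picked by the smallest p in a comparison and do not stand for their lists. Of 21 Arp2/3 and nucleator genes, 13 were higher and 1 lower after caerulein at each age, with Daam1 (2.28 ± 0.15 in aged and 2.00 ± 0.13 in young mice) and Diaph1 (1.63 ± 0.13 and 1.46 ± 0.11), both formins. Cobl, a nucleator of unbranched filaments, averaged 122 CPM in aged caerulein and 16.6 CPM in young caerulein mice (2.88 ± 0.15, edgeR), and 41.0 CPM in aged untreated and 2.73 CPM in young untreated mice (3.91 ± 0.17), so its age difference was there without caerulein. Of 18 capping, severing and monomer-binding genes, 10 were higher and 1 lower in aged mice and 7 and 4 in young mice. Dstn (destrin, a relative of cofilin) averaged 1982 CPM in aged caerulein against 46.1 CPM in aged untreated mice (5.43 ± 0.22), and 956 CPM in young caerulein against 43.6 CPM in young untreated mice (4.45 ± 0.18). Destrin was also higher in aged than in young caerulein mice (1.05 ± 0.16, adjusted p = 0.00458, edgeR). Cfl2, the muscle cofilin, was lower, close to the threshold (-0.67 ± 0.17, adjusted p = 0.0498, edgeR).

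Of 28 integrin and focal adhesion genes, 17 were higher and 3 lower at each age. Fermt2 (kindlin 2) differed by 3.21 ± 0.13 and 2.60 ± 0.11, Itga6 (the laminin receptor subunit alpha 6) by 3.06 ± 0.17 and 2.33 ± 0.14 and the kinase Src by 2.46 ± 0.16 and 2.34 ± 0.13. After caerulein 3 of the 28 were higher in aged mice, beside 2.46% of all genes. By edgeR these were Tns3 (tensin 3, 0.95 ± 0.14, adjusted p = 0.00382), Itga6 (0.79 ± 0.13, adjusted p = 0.00931) and Fermt2 (0.47 ± 0.10, adjusted p = 0.0308). None was called higher with library totals in place of TMM, beside 0.701% of genes. Of 11 partners of ezrin and membrane skeleton genes, 5 were higher and 4 lower in aged mice and 2 and 4 in young mice, with radixin (Rdx) at 1.07 ± 0.13 and 1.27 ± 0.11. The 2 higher in young mice are near the share over all genes, and none of the 11 differed by age after caerulein in edgeR.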

How the data were processed

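The deposited table holds whole-number read counts per gene from poly(A)-selected RNA, which, per the submitters' processing notes, the authors made with HISAT2 2.0.5 on mm10 and featureCounts 1.5.0-p3. For strand setting, annotation release and read filters, the sources used here give nothing. The authors' FPKM values follow count over gene length within a library and were used for levels per length. The authors' comparison tables give log2 fold changes and adjusted p-values, per the file headers, and are quoted only where named.

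Genes were filtered with edgeR's filterByExpr (14113 kept), scaled by TMM and fitted with 4 groups over all 11 libraries in edgeR 4.0.16 (R 4.3.3). Quasi-likelihood F tests of 5 comparisons had Benjamini-Hochberg adjustment across every tested gene, and calls had an adjusted p below 0.05. The script was tested on simulated data with 200 changed genes. Errors are SE for log2 fold changes and SD for levels. P-values measure the spread between these mice. The members and lists were chosen with earlier results of these data known; all 36 members are named, and up to 3 genes with the smallest p of each other list and comparison. A gene and a gene list that the rule covers are not reported here. Alternatives were DESeq2 1.42.0, other filters and scalings, a block for mouse number, fits of only the compared groups, and each library left out; pairs of choices were added after seeing the data.

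Mouse numbers were checked for pairing. Young caerulein and young untreated mice of the same number had correlations of 0.106 to 0.149 in 3 pairs. Pairs of different number reached as much: young caerulein mouse 3 with young untreated mouse 1 had 0.149. Aged caerulein mouse 3 with young caerulein mouse 1 had 0.303. The labels name no pairing and these values do not establish one, so the number was used as a block only in alternatives. Mice of the same number in other pairs of groups had correlations between -0.207 and 0.163.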

Additional observations from a re-analysis of the deposited data

How the results depend on the processing

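The members called higher after caerulein against untreated numbered 25 to 32 in young and 27 to 31 in aged mice over all alternatives run. Members called lower numbered 0 (library totals) to 5 (without young untreated mouse 1) in young mice and 0 to 2 (only the groups compared) in aged mice. Of all genes, 14.3% (no filter) to 37.7% (library totals) were called higher in young mice, and 13.9% to 38.6% in aged mice in the same settings. The shares called lower ran from 8.99% (library totals) to 30.9% (stricter filter) in young mice. In aged mice they ran from 7.61% (library totals) to 29.2% (only the groups compared). The count called between the ages after caerulein, 2 in the fit of all libraries, was 0 with library totals alone, 5 with DESeq2, 13 with only the groups compared, 7 with only the groups compared and library totals, and 13 with DESeq2 and young untreated mouse 2 left out. In the same order, 2.46%, 0.701%, 4.18%, 7.81%, 3.88% and 7.89% of all genes were called higher. Leaving out 1 library at a time gave 1 to 12, and the 12 was without young untreated mouse 2. The share of all genes called higher in those fits ran from 0.776% (without young caerulein mouse 3) to 7.85% (without young untreated mouse 2). In untreated mice the count was 0, but 7, all lower in aged mice, with no filter on low counts, beside 2.35% of genes called lower. For the difference between the responses it was 0, but 7 with no filter, 4 with DESeq2, 8 with DESeq2 and 8 with no filter when young untreated mouse 2 was left out, and 0 to 3 with 1 library left out. Of all genes, 2.02% were called higher there with no filter and 1.3% with DESeq2. Without young untreated mouse 2 the shares were 1.91% with no filter and 2.36% with DESeq2. With 1 library left out the share ran from 0% to 1.48%. With the mouse number as a replicate block, 27 members were higher and 2 lower in young mice, 30 higher in aged mice, and 2 differed by age after caerulein, and the young call lost by the block was Myl12b. In that fit 26.8% of all genes were called higher and 22% lower in young mice, and 25.7% and 19.8% in aged mice. By age after caerulein the shares were 1.66% and 0.787%.

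Directions turned for a few members. Leaving out 1 library at a time, the young caerulein difference ran from -2.29 to 0.97 for Cnn2 and from -0.95 to 1.14 for Msn, and the untreated age difference from -1.59 to 0.16 for Actb, -3.17 to 0.13 for Cnn2 and -2.07 to 0.061 for Msn. The difference between responses for Cfl1 ran from -0.067 to 0.74. In each case the end of opposite sign was without young untreated mouse 2. With that mouse out and no filter, the untreated differences were 0.12 for Actb, 0.089 for Cnn2 and 0.024 for Msn, and the Cfl1 value was -0.027, or -0.061 with DESeq2. Msn in young mice was 0.20 with a replicate block in a fit of only the young groups, and Lima1 in aged mice was 0.17 with library totals. The causes of these changes were not tested. With 2 or 3 mice per group, small differences and members near 1 CPM (Myl12b, Tpm2 and Myl9) were measured with little precision.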
